A study of Mus musculus with 20 samples.

Results

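The genes described here lay on the same side of saline with all 4 antisense oligonucleotides of the series and by a similar amount with each. They were chosen from the group means of the deposited log2 intensities. A raised gene had all 4 oligonucleotide means at least 0.25 above the saline mean, and a lowered gene had all 4 at least 0.25 below it. The 4 means also had to lie within 0.6 of each other, with less than 0.3 between the most extreme and the next. This gave 136 raised and 133 lowered genes, 269 of the 22361 measured. Angptl4 and 5 lowered rows of a range of identifiers that holds 489 rows met the same limits and were left out by the rule. All 269 are included in what follows and no filter on dim genes was applied.

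The 20 arrays measured total RNA of livers from female C57BL/6 mice (C57BL/6J in the growth protocol), 4 in each of 5 groups, which the labels call biological replicates. SPC4955, SPC3833, SPC4061 and SPC3847 were injected into a vein on 3 consecutive days. SPC3833 was given at 5 mg/kg and the other 3 at 10 mg/kg, and the control mice received saline. The labels place collection on day 3 in the treatment protocol, counting the first dose as day 0, and 4 days after that dose in the source name. They give code names only, so neither a target nor a chemistry is stated here, and no target transcript could be used to check a group.

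An antisense oligonucleotide is a short synthetic strand that pairs with an RNA of matching sequence. Oligonucleotides given into the blood collect in liver and kidney, where hepatocytes and the cells lining the sinusoids take them up. Genes that move alike under different oligonucleotides are of interest because such a response need not depend on the RNA that any of them pairs with. All 4 comparisons used the same 4 saline arrays, so an unusual saline array moves a gene alike in all of them.

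The rows carry Ensembl mouse identifiers that the files do not pair with symbols, and 0 of them occur in the gene table used here. No role, pathway or cell type is therefore given to a gene below, and only the 2 largest shifts in each direction are named. Liver and cell type markers were not analysed here for the same reason. In whole liver, fewer cells of a type and less RNA per cell cannot be told apart.

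2 arrays stood apart from their groups in the lowered genes, SPC4955 replicate 1 and saline replicate 1. The mean of the 133 lowered genes, set against the saline mean, was -0.043 in SPC4955 replicate 1 and between -0.58 and -0.51 in the other SPC4955 livers. The 12 arrays of SPC3833, SPC4061 and SPC3847 lay between -0.57 and -0.44. It was 0.66 in saline replicate 1 and lay between -0.25 and -0.20 in saline replicates 2 to 4. The 136 raised genes showed no such array. Their mean lay between 0.27 and 0.53 in the 16 oligonucleotide livers and between -0.06 and 0.07 in the 4 saline livers. Results on the lowered genes are therefore given with and without these arrays.

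**Figure D1:**
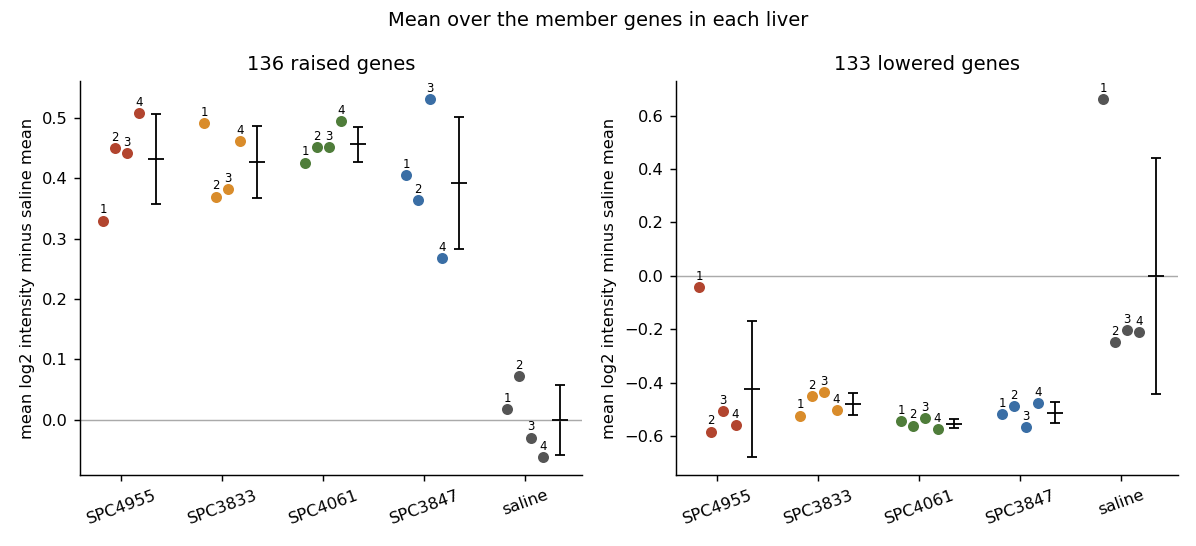
Mean over the 136 raised (left) and 133 lowered (right) genes in each liver, as log2 intensity minus the saline mean, with 1 point per liver numbered by replicate and the group mean with its SD (n = 4) as a bar. In the raised genes the oligonucleotide livers stay at or above 0.27 and the saline livers at or below 0.07. In the lowered genes SPC4955 replicate 1 lies at -0.043 and saline replicate 1 at 0.66, away from their groups.

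The raised genes were moderately higher with every oligonucleotide. Averaged over the 4 oligonucleotides, a raised gene was between 1.21-fold and 2.41-fold higher than with saline, with a median of 1.32-fold. The median shift on the log2 scale was 0.38 in both SPC4955 and SPC3833 livers, 0.43 in SPC4061 livers and 0.35 in SPC3847 livers. Over all 22361 genes these medians were 0.01, 0.05, -0.02 and 0.02. Of the 136 genes, 24 had a mean shift of at least 0.5 and 1 had a mean shift of at least 2-fold. These shifts were used to choose the genes and are given as a description, with no test.

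The largest raised shift was that of ENSMUSG00000091119. Its log2 intensity was 5.83, 5.45, 6.10 and 6.41 in SPC4955 livers, 5.45, 6.53, 6.53 and 5.86 in SPC3833 livers, 5.79, 5.73, 5.85 and 5.70 in SPC4061 livers, and 6.49, 5.64, 6.07 and 5.28 in SPC3847 livers, against 5.00, 4.89, 4.35 and 4.37 in saline livers. All 16 oligonucleotide livers lay above all 4 saline livers. The group means were 5.95 ± 0.41 for SPC4955, 6.09 ± 0.53 for SPC3833, 5.77 ± 0.07 for SPC4061 and 5.87 ± 0.52 for SPC3847, against 4.65 ± 0.34 for saline (SD, n = 4 each). The mean shift was 1.27, and 1.38 without saline replicate 1. The saline mean of this gene was higher than that of 18.7% of all genes, so it was dim on these arrays.

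ENSMUSG00000042293 had the next largest mean shift, 0.82, and was bright, with a saline mean above that of 85.1% of all genes. Its log2 intensity was 9.39, 10.10, 10.09 and 9.76 in SPC4955 livers, 9.48, 9.54, 9.68 and 9.80 in SPC3833 livers, 9.99, 9.97, 9.54 and 9.89 in SPC4061 livers, and 9.41, 9.47, 9.63 and 9.01 in SPC3847 livers, against 8.51, 8.97, 9.42 and 8.52 in saline livers. Saline replicate 3 overlapped the lowest values of SPC4955 and SPC3847. The group means were 9.84 ± 0.33 for SPC4955, 9.63 ± 0.14 for SPC3833, 9.85 ± 0.21 for SPC4061 and 9.38 ± 0.26 for SPC3847, against 8.86 ± 0.43 for saline (SD, n = 4 each). The mean shift was between 0.70 and 1.00 when any single array was left out.

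**Figure D2:**
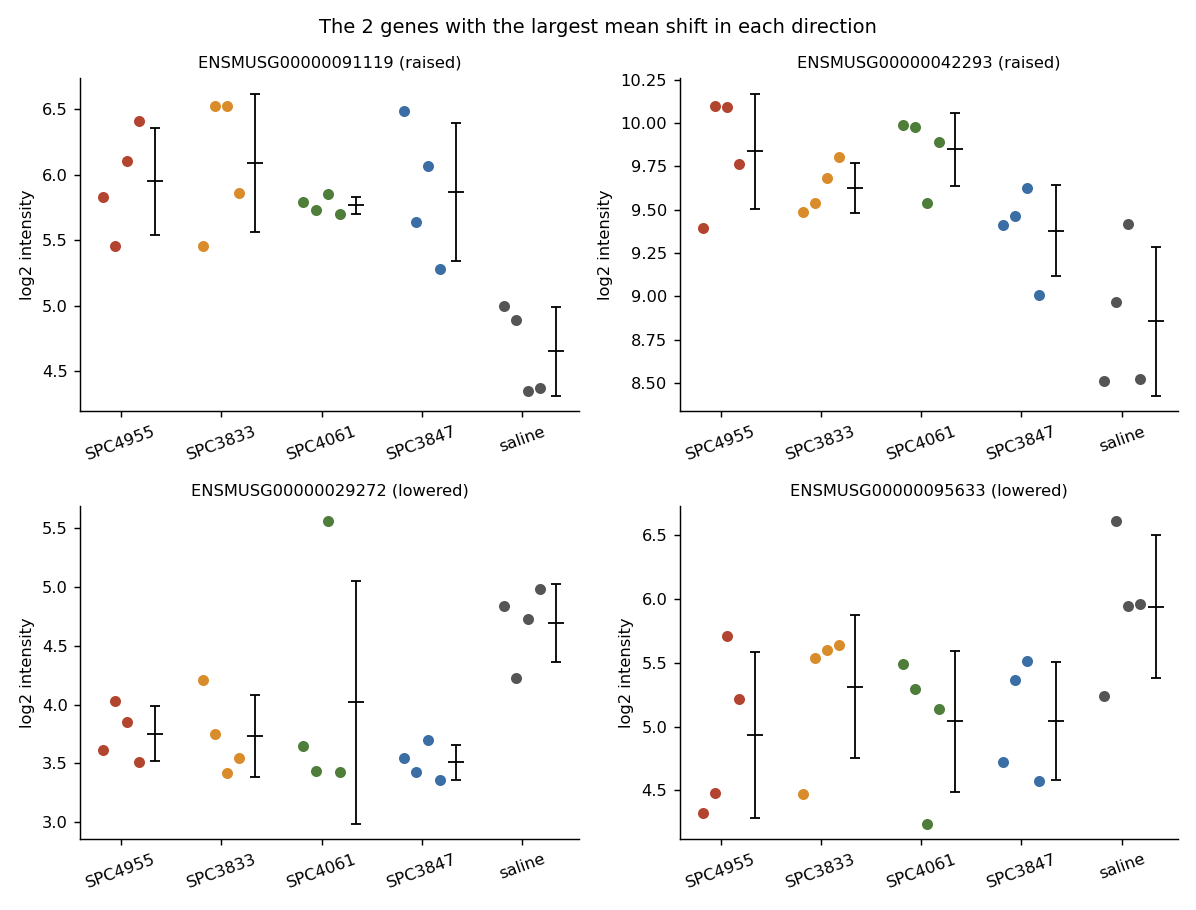
Log2 intensity of the 2 raised and the 2 lowered genes with the largest mean shift, with 1 point per liver and the group mean with its SD (n = 4) as a bar. ENSMUSG00000091119 shows no overlap with saline. In the other 3 genes at least 1 oligonucleotide liver overlaps the saline livers.

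Single livers separated well in part of the raised genes. The rule used the means of the same livers, so the counts here are a description and nothing is read from them. All 16 oligonucleotide livers lay above all 4 saline livers in 55 of the 136 genes, where 0.818% of all genes did. Taken 1 oligonucleotide at a time, the 4 livers lay above the saline livers in 87 of 136 genes for SPC4955 (7.68% of all genes), 95 for SPC3833 (9.1%), 105 for SPC4061 (13.1%) and 78 for SPC3847 (4.87%). The median SD of a raised gene within a group was 0.15 for SPC4955, 0.12 for SPC3833, 0.10 for SPC4061, 0.17 for SPC3847 and 0.13 for saline.

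A linear model over all genes and arrays (limma, Benjamini-Hochberg adjusted p under 0.05) called 91 of the 136 raised genes higher with SPC4955, where it called 4.22% of all genes higher. For SPC3833 the count was 87 (3.71% of all genes), for SPC4061 107 (8.73%) and for SPC3847 62 (1.84%). It called 47 genes with all 4 oligonucleotides (0.326% of all genes), 29 with 3, 29 with 2, 14 with 1 and 17 with none. The rule used the same comparisons, so these counts describe the genes and nothing is read from them. In a fit of only the 8 arrays compared, 42 were called for SPC4955 (1.52% of all genes), 82 for SPC3833 (2.99%), 101 for SPC4061 (7.86%) and 3 for SPC3847 (0.0224%). After centring each array on its median the counts were 53 (1.96%), 52 (1.54%), 108 (8.47%) and 37 (0.805%) in the same order.

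The amount by which the 4 oligonucleotides differed within a raised gene was small by construction. The distance between the highest and the lowest of the 4 means had a median of 0.20 and reached 0.58, and it was under 0.2 in 68 of 136 genes. SPC4061 gave the largest shift in 52 genes, SPC4955 in 30, SPC3833 in 30 and SPC3847 in 24. SPC3847 gave the smallest in 45, SPC4955 in 41, SPC3833 in 27 and SPC4061 in 23. SPC3833 was given at a lower dose than the other 3, so its shifts are set beside theirs with no comparison.

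**Figure D3:**
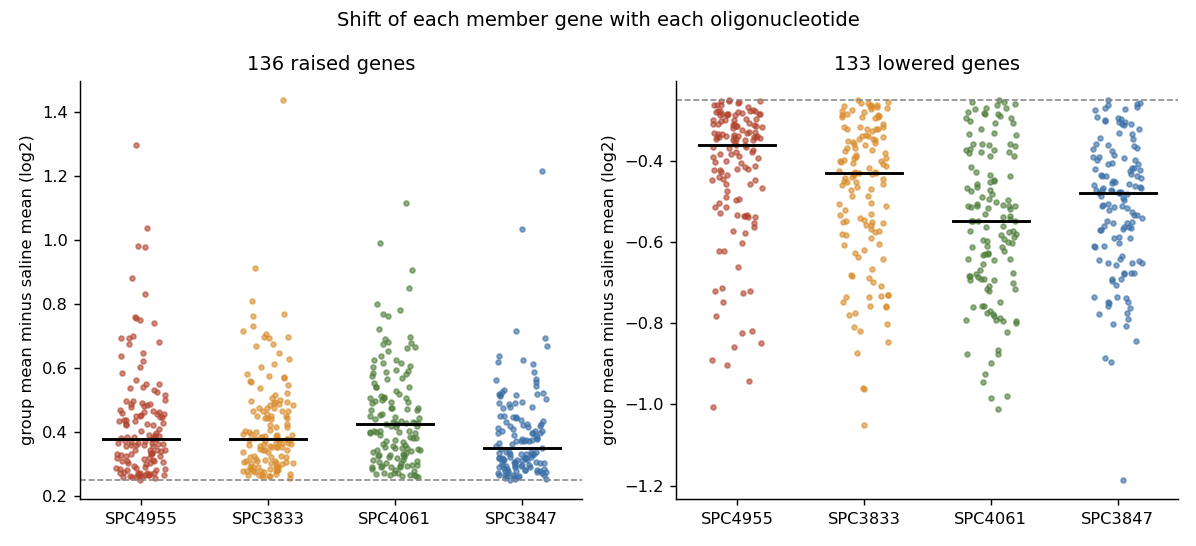
Shift of each raised (left, 136 genes) and lowered (right, 133 genes) gene with each oligonucleotide, as group mean minus saline mean on the log2 scale. Black lines are medians and dashed lines mark the floor of 0.25 in the rule. The medians of the raised genes lie between 0.35 and 0.43, and those of the lowered genes between -0.55 and -0.36.

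Raised genes were mostly bright. Their saline level had a median of 8.05, against 6.44 over all genes, and 68 of 136 lay in the brightest of 4 equal parts of all genes by saline level, against 8 in the dimmest. The mean of the raised genes moved with the width of an array's distribution. Taken as deviations from the group means over 20 arrays, it correlated at 0.74 with the quartile range of the array (Spearman 0.73, and 0.72 without the 2 arrays farthest in width). Among genes above the median level, single genes showed the same at large. Their median correlation with width was 0.34 over the 112 raised genes and 0.37 over all 11181 genes above that level. Below it the median was 0.31 over 24 raised genes and -0.49 over all 11180 genes. The quartile range was 2.99 to 3.21 in SPC4955 arrays, 2.87 to 2.97 in SPC3833 arrays, 3.02 to 3.20 in SPC4061 arrays, 2.70 to 3.16 in SPC3847 arrays and 2.81 to 3.15 in saline arrays. When all arrays were brought to the same median and quartile range, the median mean shift of the 136 genes was 0.38, against 0.40 as deposited. 76 of the 136 then still met every limit of the rule, among 89 genes that did. On that scale 41 of the 136 were called for SPC4955 (1.59% of all genes), 71 for SPC3833 (3.08%), 67 for SPC4061 (4.85%) and 51 for SPC3847 (1.79%).

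Within groups the raised genes moved together only loosely. Deviations from the group means correlated by 0.15 on average over the 9180 pairs of raised genes, against 0.01 over all pairs of genes, in 20 arrays that share their scaling. Without the 2 arrays that stood apart the averages were 0.15 and 0.01. The average over all pairs mixes genes above and below the median level. Their median correlations with array width had opposite signs, 0.37 and -0.49, and 112 of the 136 raised genes lay above that level. Pairs of genes of like level were not examined, so the 0.15 is not shown to be particular to the raised genes. Of the 4 saline arrays, none changed the raised genes as much as saline replicate 1 changed the lowered ones. 118 of the 136 still met the rule without saline replicate 1, 122 without replicate 2, 103 without replicate 3 and 106 without replicate 4. In 1 raised gene the mean shift turned below 0 without saline replicate 1. Its value was 4.09 in that array and between 5.64 and 6.36 in the other saline livers. Its mean shift was 0.46, but -0.01 without that array.

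The 133 lowered genes were divided by whether they met the rule without saline replicate 1. Of the 133, 56 still met it and 77 did not. This division was made after the values had been seen and carries no test. The level of a gene in saline replicate 1, minus its mean in saline replicates 2 to 4, was at least 1 in 55 of the 133 lowered genes, in 0 of the 136 raised genes and in 1.14% of all genes. This difference ran from -1.05 to 0.92 in the 56 genes and from 0.05 to 3.20 in the 77, so the division cuts through overlapping values. All 55 genes with a difference of at least 1 belonged to the 77. A high saline array raises the saline mean that the rule used, so the rule favours such genes and nothing is read from these counts.

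In the 56 genes the oligonucleotides lay apart from saline and close to each other, as the rule asked with and without saline replicate 1. The values here are a description, with no test. Their mean log2 intensity was 7.58 to 7.72 in the 4 SPC4955 livers, 7.61 to 7.73 in the SPC3833 livers, 7.60 to 7.74 in the SPC4061 livers and 7.59 to 7.74 in the SPC3847 livers, against 8.14 to 8.20 in the saline livers. Saline replicate 1 was the lowest saline liver here, at 8.14. The median mean shift was -0.50, and -0.48 without saline replicate 1. By group the mean was 7.65 ± 0.07 for SPC4955, 7.66 ± 0.06 for SPC3833, 7.67 ± 0.06 for SPC4061 and 7.66 ± 0.06 for SPC3847, against 8.17 ± 0.03 for saline (SD, n = 4 each). The shift was largest with SPC4955 in 15 genes, SPC3833 in 13, SPC4061 in 15 and SPC3847 in 13. It was smallest with SPC4061 in 22, SPC3833 in 13, SPC3847 in 11 and SPC4955 in 10. Their median level in saline replicates 2 to 4 was 8.35.

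The 77 genes were on average far higher in saline replicate 1 than in the other saline livers, but not all of them were. Without that array 15 of the 77 still lay on average at least 0.25 below saline, and missed the rule because at least 1 of the 4 means was closer than that. Their mean log2 intensity was 6.43 in SPC4955 replicate 1 and 5.49, 5.54 and 5.44 in SPC4955 replicates 2, 3 and 4. It was 5.59 to 5.64 in SPC3833 livers, 5.46 to 5.55 in SPC4061 livers and 5.48 to 5.68 in SPC3847 livers, against 7.25 in saline replicate 1 and 5.63, 5.72 and 5.74 in saline replicates 2, 3 and 4. Apart from SPC4955 replicate 1, the oligonucleotide livers lay far closer to saline replicates 2 to 4 than saline replicate 1 did. The median mean shift of the 77 genes was -0.46 with all arrays and -0.05 without saline replicate 1. The median was then 0.09 for SPC4955, -0.02 for SPC3833, -0.19 for SPC4061 and -0.10 for SPC3847. For all 133 lowered genes it was -0.47 with all arrays, -0.31 without saline replicate 1 and -0.31 without both arrays that stood apart. Without saline replicate 1, 29 of the 133 lay on average above saline, and without both arrays 8 did. The 0.09 for SPC4955 and the 29 still include SPC4955 replicate 1. Without both arrays 48 of the 133 still met the rule.

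**Figure D4:**
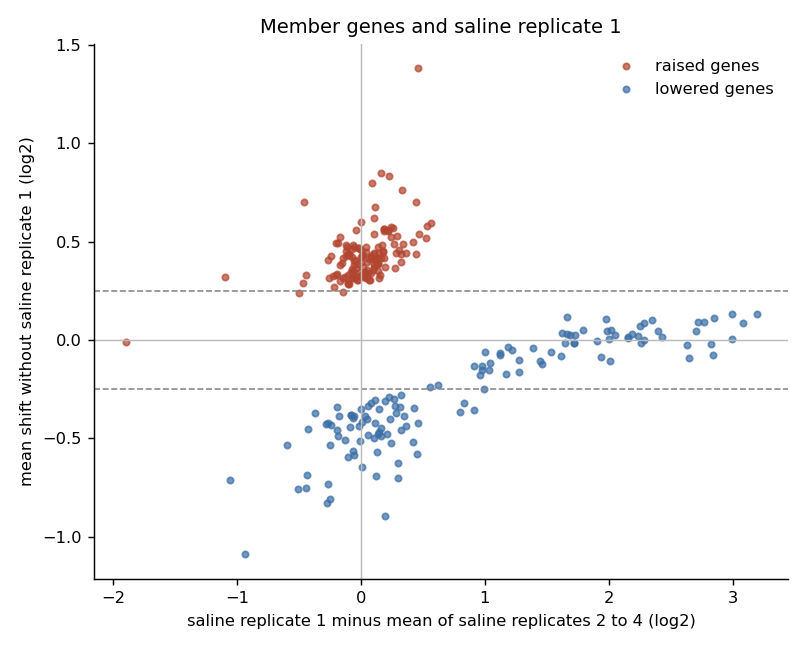
Each raised and lowered gene by its level in saline replicate 1 minus its mean in saline replicates 2 to 4 (horizontal axis, log2) and its mean shift over the 4 oligonucleotides computed without saline replicate 1 (vertical axis, log2). Dashed lines mark the floor of 0.25. Lowered genes far to the right lie near 0 on the vertical axis, while those near 0 on the horizontal axis mostly stay below -0.25. The genes were chosen with saline replicate 1 in the saline mean, so this pattern is built in and nothing is read from it.

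SPC4955 replicate 1 was high in the same genes. It lay at least 0.5 above the mean of the other 3 SPC4955 livers in 61 of the 133 lowered genes, 58 of them among the 77, and in 2.46% of all genes. Of the 55 genes at least 1 higher in saline replicate 1, 54 were also at least 0.5 higher in SPC4955 replicate 1. Over all genes 235 of 254 were, so this was not particular to the lowered genes. Over the 133 lowered genes the excess in one array correlated with that in the other at 0.88, and over all genes at 0.52. Both are correlations across genes, which are not independent replicates. SPC4955 gave the smallest shift in 53 of the 77 genes and SPC4061 the largest in 51. Among the 56 genes these counts were 10 and 15, and SPC4061 there gave the smallest shift most often, in 22 genes.

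The 2 groups that hold these arrays were also the most variable in the lowered genes. The median SD of a lowered gene was 0.33 for SPC4955, 0.10 for SPC3833, 0.13 for SPC4061 and 0.18 for SPC3847, against 0.42 for saline. Of the 133 genes, limma called 40 lower with SPC4955 (2.37% of all genes were called lower). For SPC3833 it called 42 (3.35%), for SPC4061 44 (2.74%) and for SPC3847 37 (1.49%), and nothing is read from these counts either. It called 17 with all 4 (0.121% of all genes), 20 with 3, 12 with 2, 11 with 1 and 73 with none. Of the 56 genes, 44 were called with at least 1 oligonucleotide and 16 with all 4, while of the 77 genes 16 and 1 were. The share of all genes called with at least 1 was not computed. The split and the calls used the same saline arrays, so nothing is read from this contrast. Without both arrays that stood apart, the counts for all 133 were 30 for SPC4955 (1.91% of all genes), 36 for SPC3833 (2.9%), 45 for SPC4061 (3.24%) and 31 for SPC3847 (1.26%). In a fit of only the 8 arrays compared, 21 were called for SPC4955 (1.42%), 41 for SPC3833 (3.33%), 38 for SPC4061 (2.39%) and 7 for SPC3847 (0.157%).

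All 16 oligonucleotide livers lay below all 4 saline livers in 24 of the 133 lowered genes, where 0.3% of all genes did. Of these, 22 were among the 56 genes and 2 among the 77. The rule used the means of the same livers, so nothing is read from the counts in this paragraph. Taken alone, the 4 SPC4955 livers lay below saline in 45 genes (3.72% of all genes), the SPC3833 livers in 52 (5.97%), the SPC4061 livers in 63 (5.45%) and the SPC3847 livers in 45 (3.11%).

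The lowered gene with the largest mean shift was ENSMUSG00000029272, which was dim, with a saline mean above that of 19.2% of all genes. Its log2 intensity was 3.62, 4.03, 3.85 and 3.51 in SPC4955 livers, 4.21, 3.75, 3.42 and 3.54 in SPC3833 livers, 3.65, 3.44, 5.56 and 3.43 in SPC4061 livers, and 3.55, 3.42, 3.70 and 3.36 in SPC3847 livers, against 4.84, 4.22, 4.73 and 4.99 in saline livers. SPC4061 replicate 3 was higher than every saline liver, and the other 15 oligonucleotide livers were lower than all of them. The group means were 3.75 ± 0.24 for SPC4955, 3.73 ± 0.35 for SPC3833, 4.02 ± 1.03 for SPC4061 and 3.51 ± 0.15 for SPC3847, against 4.69 ± 0.33 for saline (SD, n = 4 each). The mean shift was -0.94, and -0.89 without saline replicate 1.

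ENSMUSG00000095633 had a mean shift of -0.86. Its log2 intensity was 4.32, 4.48, 5.71 and 5.22 in SPC4955 livers, 4.47, 5.54, 5.60 and 5.64 in SPC3833 livers, 5.49, 5.29, 4.24 and 5.14 in SPC4061 livers, and 4.72, 5.36, 5.52 and 4.58 in SPC3847 livers, against 5.24, 6.61, 5.95 and 5.96 in saline livers. Here saline replicate 1 was the lowest saline liver and overlapped every oligonucleotide group. Without it the mean shift was -1.09, and without saline replicate 2 it was -0.63.

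Lowered genes were spread over all levels. Their saline level had a median of 6.57, against 6.44 over all genes, and 17, 44, 36 and 36 of them lay in the 4 equal parts of all genes from dim to bright. Among the 74 whose mean level over 20 arrays was below the median of all genes, SPC4061 gave the largest shift in 50 and SPC4955 the smallest in 49. Among the 59 above that median the counts were 16 and 14. The 77 genes that met the rule only with saline replicate 1 were the dimmer ones, with a median level of 5.48 in saline replicates 2 to 4. Deviations from the group means correlated by 0.68 on average over the pairs of these 77 genes, and by 0.16 without both arrays. For the 56 genes the averages were 0.07 and 0.08. The split used saline replicate 1, which is among the arrays correlated, so the contrast of 0.68 with 0.07 is built in. Nothing is read from it.

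The rule was also applied with 1 replicate number left out of every group, and the genes it chose were read in the 5 arrays left out, which had no part in the choice. The labels give the numbers no further meaning, so whether same-numbered livers shared a step of handling is not known. The raised genes chosen on 15 arrays numbered 159, 197, 111 and 121 without replicates 1, 2, 3 and 4. Their median mean shift in the arrays left out was 0.24, 0.24, 0.27 and 0.40, against 0.40, 0.41, 0.40 and 0.39 in the arrays that chose them. The oligonucleotides lay on average above the saline array left out in 91.8%, 86.3%, 87.4% and 95.0% of them, against 66.0%, 57.9%, 47.8% and 48.6% of all genes. Each of these readings rests on 1 saline liver and has no replicate check of its own. The quartile ranges of saline replicates 1, 2, 3 and 4 were 3.15, 3.03, 2.87 and 2.81. The shares of all genes mix bright and dim genes, whose median correlations with array width had opposite signs. Shares over genes of like level were not computed, and the part of array width was not tested.

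The lowered genes chosen in this way numbered 70, 165, 158 and 151. Their median mean shift in the arrays left out was -0.31, -0.06, -0.21 and -0.14, against -0.46, -0.50, -0.49 and -0.50 in the arrays that chose them. The shift in the arrays left out was largest where replicate 1, and with it both arrays that stood apart, had no part in the choice. That shift was also read against saline replicate 1 alone, the saline array that stood apart. Which of these mattered was not tested. On average the oligonucleotides lay below the saline array left out in 81.4%, 61.2%, 82.9% and 78.1% of them, against 34.03%, 42.1%, 52.2% and 51.4% of all genes.

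**Figure D5:**
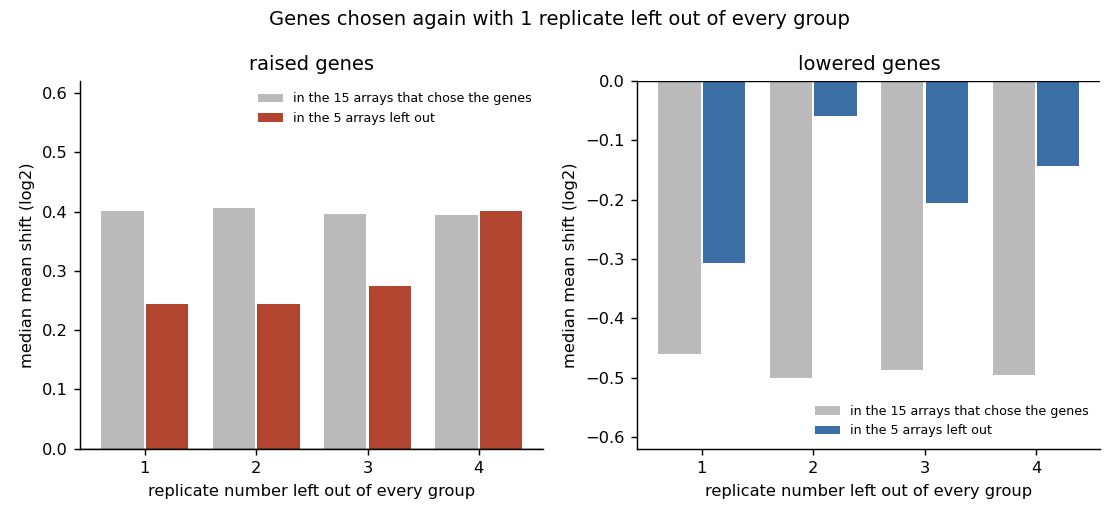
Median mean shift (log2) of raised (left) and lowered (right) genes chosen again with 1 replicate number left out of every group, in the 15 arrays that chose them (grey bars) and in the 5 arrays left out (coloured bars). Raised genes keep 0.24 to 0.40 in the arrays left out. Lowered genes keep between -0.31 and -0.06.

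The limit of 0.25 cut through a dense range of values. The 3 raised genes closest to it had a smallest shift of 0.251, 0.251 and 0.252, and the 3 just outside had 0.249, 0.247 and 0.247. The 3 lowered genes closest to it had -0.2503, -0.251 and -0.251, and the 3 just outside had -0.249, -0.249 and -0.248. Of 166 genes with all 4 means at least 0.25 above saline, 15 were dropped for the distance among the 4 means and 14 for a single extreme mean. Of 221 genes with all 4 at least 0.25 below, 77 and 6 were dropped in the same way.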

How the data were processed

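Liver RNA of 20 mice was labelled with biotin by a whole-transcript sense-target method and hybridised to 1-colour Affymetrix arrays, per the labels' protocols. The authors deposited log2 intensities, 1 value per Ensembl gene identifier and array, between 2.38 and 13.9. The affy package was used, per the submitters' processing notes, and the sources used here state no background correction, normalization or probe assignment. Array medians lay between 6.37 and 6.53. The number of arrays limits the precision, and signal over background was not analysed here.

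Values were used as deposited. The genes came from the group means. Genes were called with limma 3.58.1 (R 4.3.3, moderated by eBayes), with a mean per group over 20 arrays, 15 residual degrees of freedom and Benjamini-Hochberg adjustment over 22361 genes at 0.05. It was tested on simulated data. The labels call the livers biological replicates. The genes, lists and settings were chosen with earlier results of these data known. The rule for named genes asked for the 10 largest mean shifts in each direction with a symbol, and 0 had one, so the 2 largest in each direction stand by identifier. The 28 gene lists need symbols, so no list or marker was analysed here. The genes' promoters were not analysed here for the same reason. Alternatives were other scalings, floors, model fits and leaving out each array.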

Additional observations from a re-analysis of the deposited data

Results flagged for a closer look

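A sample lay far from the other 3 of its group in 6 of 35 sets of 4 values examined. The usual chance rate of about 1 in 20 does not apply to the means of the raised or lowered genes or to the named genes. These were chosen from the same group means, so the count is not read against that rate. The mean of the lowered genes, set against the saline mean, was -0.043 in SPC4955 replicate 1, with -0.58 to -0.51 in the other SPC4955 livers. It was 0.66 in saline replicate 1, with -0.25 to -0.20 in the other saline livers. The part of these 2 livers in the lowered genes is given by the values without them in the report.

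ENSMUSG00000029272 was 5.56 in SPC4061 replicate 3, against 3.43 to 3.65 in the other SPC4061 livers. ENSMUSG00000095633 was 4.47 in SPC3833 replicate 1, against 5.54 to 5.64. The quartile range of the array was 3.21 in SPC4955 replicate 4, against 2.99 to 3.03, and 3.02 in SPC4061 replicate 1, against 3.18 to 3.20.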

How the results depend on the processing

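Both median mean shifts kept their direction under other scalings and without each array. With other floors or without dim genes the rule fixed the direction in advance. The genes were chosen from these same arrays, so the kept direction is a description. Model settings (8 arrays, array weights, width as a covariate, replicate block) were run for calls only. The number of raised genes was 207 without the 2 arrays that stood apart, 89 after scaling to a common median and width (added after the data had been seen), 65 with a floor of 0.3 and 273 with a floor of 0.2, whose median mean shifts were 0.45 and 0.34. The number of lowered genes was 73 with a floor of 0.3. Over the 20 arrays left out in turn, the genes chosen anew numbered 106 to 188 raised and 92 to 250 lowered. The fixed 136 and 133 genes had median mean shifts of 0.38 to 0.42 and -0.55 to -0.31. Lowered genes chosen anew numbered 250 without SPC4955 replicate 1 and 203 without saline replicate 2.

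Raised genes called after median centring were 53 with SPC4955 (1.96% of all genes), 52 with SPC3833 (1.54%) and 37 with SPC3847 (0.805%), and after width scaling 41 with SPC4955 (1.59%) and 67 with SPC4061 (4.85%). Lowered genes called with SPC3847 were 24 after median centring (0.814%). In fits of only the 8 arrays, 42 raised (1.52%) and 21 lowered genes (1.42%) were called with SPC4955, and 3 (0.0224%) and 7 (0.157%) with SPC3847. The cause was not tested. With 1 array left out, raised calls were 58 to 98 with SPC4955, 55 to 95 with SPC3833, 80 to 111 with SPC4061 and 29 to 76 with SPC3847, where 2.39% to 5.19%, 2.23% to 4.63%, 5.51% to 10.6% and 0.823% to 2.54% of all genes were called higher. Lowered calls were 25 to 46, 26 to 44, 36 to 47 and 27 to 39 in that order, where 1.71% to 2.63%, 2.4% to 3.89%, 1.8% to 3.52% and 0.979% to 1.77% of all genes were called lower. Raised calls with SPC4955 were 58, 59 and 60 without saline replicate 4, SPC4955 replicate 2 and SPC4955 replicate 4. With SPC3833 they were 57, 55 and 57 without saline replicate 4, SPC3833 replicate 1 and SPC3833 replicate 4. With SPC3847 they were 41, 39 and 29 without saline replicate 3, saline replicate 4 and SPC3847 replicate 3. Lowered calls were 25 with SPC4955 without its replicate 2 and 26 with SPC3833 without its replicate 4.

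Replicate numbers are shared by the groups, but most same-numbered livers did not deviate together (correlation of deviations over genes -0.50 to 0.52, median -0.03, 9 of 40 pairs over 0.1). The pair at 0.52 was SPC4955 replicate 1 and saline replicate 1. With the replicate number as a block, 85, 76, 104 and 53 raised genes and 38, 42, 41 and 32 lowered genes were called with SPC4955, SPC3833, SPC4061 and SPC3847, and 3.57%, 3.08%, 7.5% and 1.31% of all genes higher and 2.18%, 3.18%, 2.35% and 1.26% lower. In the arrays left out together, the shift was 0.24 to 0.40 for raised and -0.31 to -0.06 for lowered genes. None of 99 values of the 4 named genes under alternatives turned direction. These genes were named for the largest mean shifts, so nothing is read from this.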
